A study of Mus musculus with 24 samples.

Results

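Sense intronic genes are noncoding genes that the annotation places inside an intron of another gene and on the same strand as that gene, which is called the host here. The genes described were those annotated as sense intronic with at least 5 counts in every one of the 12 cerebral cortex libraries. That rule kept 129 of the 263 sense intronic genes among the 48709 genes of the count table, and 17981 genes of any type had as many counts in every library. Because the members were chosen by these counts, their levels below are a description without a test.

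The libraries came from C57BL/6J neonates, aged 3 to 5 days per the labels, whose C57BL/6 dams breathed nano-sized particulate matter (nPM, labelled 300 mg/m3, 5 h per day on 3 days per week from gestational day 2 to birth) or filtered air. The study's methods instead name the mice C57BL/6NJ, give the dose in micrograms, and describe the pups as day 5 and from different litters. Total RNA from dissected cortex was depleted of ribosomal RNA, which keeps RNA without a poly(A) tail and RNA that has not been spliced. There were 6 nPM and 6 control cortex libraries, with 3 females and 3 males in each group, and no other allele or treatment separated the groups. In each combination of exposure and sex, 2 libraries were sequenced on lane 2 and 1 on lane 3.

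While RNA polymerase transcribes a gene, its introns are part of the nascent transcript, and they are normally cut out and degraded in the nucleus by debranching and by exonucleases. Some introns also contain independent genes with their own promoter or RNAs that are processed out of the host transcript, such as microRNAs and small nucleolar RNAs. Many other intronic annotations rest on a few cDNA clones, so reads in such an interval can come from the annotated RNA or from the unspliced host transcript. The counts hold no information that tells these sources apart, and the strandedness of the libraries is not given in the sources used here.

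A host on the same strand was found for 128 members, and 98 genes served as hosts. The hosts were protein coding for 126 members and processed transcripts for 2, and 1700123O21Rik had no host in the count annotation. Later gene models of the same genome build (Gencode M21 on GRCm38) placed 124 members inside a single intron of the host. Introns here are the gaps left after merging the exons of all transcripts of a host. Their numbers and lengths can therefore differ from those in any single transcript. Gm45311 in Sergef and Gm15869 in Fopnl overlapped host exons, by 826 and 1212 bases of their genomic span. Gm39038 in Ntrk3 and Gm45148 in Zfp444 stretched over more than 1 intron.

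The members lay in long introns, more often before than after the middle of the host. Of the 129 members, 32 lay in the first intron and 65 in introns 1 to 3, and the median start was 38.9% of the way along the host span, with 75 members before the middle of that span. The introns had a median length of 30920.5 bases, from 1684 to 1244595. Members themselves were short, at a median of 1781 bases (184 to 6071), and 74 had 1 exon. Chromosome 3 carried 40 members, chromosome 1 carried 17 and chromosome 5 carried 16, and of all 263 sense intronic genes in the annotation 66, 31 and 39 were on those chromosomes. A gene on the opposite strand overlapped 10 members, among them Gm10115 and Gm26930, and for these antisense reads could be counted with the member if strand was not used.

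The 3′ ends of the 8 members with the highest levels are shown because they separate annotated ends with a poly(A) signal, the hexamer at which polyadenylated transcripts are cleaved, from ends without one. Each line gives the last 50 bases of the Gencode M21 transcript in transcript orientation, 5′ to 3′, and capitals mark AATAAA, or the variant ATTAAA where AATAAA was not found. Only the transcript strand was searched and overlapping matches were allowed.
Peg13: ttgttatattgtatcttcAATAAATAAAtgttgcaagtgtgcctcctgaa
B930095G15Rik: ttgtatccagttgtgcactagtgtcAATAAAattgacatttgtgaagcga
Gm37573: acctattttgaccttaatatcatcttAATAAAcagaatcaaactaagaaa
Gm15835: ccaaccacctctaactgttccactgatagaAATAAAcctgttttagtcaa
Gm10115: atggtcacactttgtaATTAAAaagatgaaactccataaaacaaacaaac
Gm28119: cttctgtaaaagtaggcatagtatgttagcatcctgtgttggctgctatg
Gm37963: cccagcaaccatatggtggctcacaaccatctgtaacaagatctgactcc
Gm45591: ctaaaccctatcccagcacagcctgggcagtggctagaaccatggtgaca
In GRCm38 these windows are chr15:72805600-72805649 (minus strand) for Peg13, chr14:121253922-121253971 (plus) for B930095G15Rik, chr3:25695195-25695244 (minus) for Gm37573 and chr16:4777743-4777792 (minus) for Gm15835. Those of the others are chr2:6950453-6950502 (minus) for Gm10115, chr9:41582234-41582283 (plus) for Gm28119, chr9:108390156-108390205 (plus) for Gm37963 and chr7:99322406-99322455 (plus) for Gm45591. In Peg13 a pair of overlapping AATAAA started 32 and 28 bases before the end. The single AATAAA started 25 bases before the end of B930095G15Rik, 24 before that of Gm37573 and 20 before that of Gm15835. In Gm10115 the ATTAAA started 34 bases before the end.

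Among the 127 members with a transcript in Gencode M21, 31 had AATAAA in the last 50 bases, a share of 24.4%. The share was 17.8% in TEC genes, a class of mostly single-exon loci that still await experimental evidence, of which 1033 met the same count minimum. It was 47.0% in lincRNA genes, 44.5% in antisense genes and 60.2% in protein-coding genes that met it. Members with 1 exon had the hexamer in 20 of 74 cases and members with more exons in 11 of 53. A match is a description of the sequence, not of the use of a site.

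Gm28119 is shown from its start as well, because its annotated interval holds a microRNA. It lies in an intron of 2610203C20Rik, and its first 110 of 298 transcript bases (chr9:41581908-41582017, plus strand, GRCm38) contain the hairpin of mir-125b, at bases 19 to 95. Capitals mark the 22 bases of mature miR-125b-5p.
Gm28119 5′ end: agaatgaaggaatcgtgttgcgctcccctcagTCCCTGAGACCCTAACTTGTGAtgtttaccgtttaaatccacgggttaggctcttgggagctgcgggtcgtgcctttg
mmu-miR-125b-5p: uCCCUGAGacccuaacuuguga
The mature sequence is from RefSeq on GRCm38 and its capitals mark the seed, bases 2 to 8, with which a microRNA pairs to its targets. The miR-125b family is abundant in the nervous system, where it acts in neuronal differentiation. The total RNA libraries did not select small RNAs, so the counts of Gm28119 do not measure the mature microRNA.

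Levels of the members were low. The median count over the 12 cortex libraries was 34 for the middle member and ranged from 8.5 to 4294. It was under 50 for 83 members and at least 100 for 20. Library totals ran from 22301409 to 33804371 counts, so counting error alone was large for most members. Per length, the middle member stood at 0.812 CPM per kb (counts scaled to a library total of 1000000, per kb of exon), and the range was 0.106 to 30.1. Across the 12 libraries the highest level of a member was a median of 2.65 times its lowest, against 1.24 times for the hosts, and for the 20 members with at least 100 counts it was 2.24 times.

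The threshold cut through a continuum. A lowest count of 5 was found for 11 members, whose median counts were 9 to 20, and a lowest count of 6 for 8 members. Just outside were 10 sense intronic genes with a lowest count of 4 and medians of 7.5 to 17.5, led by Gm44200, and 8 with a lowest count of 3 and medians of 5 to 13.5.

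Peg13 stood far above the other members. It is a paternally expressed, brain-enriched noncoding RNA of 4725 bases in 1 exon, at chromosome 15, 72805600 to 72810324, minus strand, in intron 20 of 26 of Trappc9, which encodes a subunit of a vesicle trafficking complex. Its count was 3249 in the lowest library, 4294 in the median and 4832 in the highest. At 30.1 CPM per kb it exceeded its host, at 8.50, in every library, and its level per length was 316 to 381% of that of Trappc9 (median 356%).

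B930095G15Rik, in Farp1, which encodes a protein of dendrites and synapses, was next at 10.4 CPM per kb. It lies at chromosome 14, 121248706 to 121253971, plus strand, in intron 14 of 27, and had 1068, 1428.5 and 1798 counts in the lowest, median and highest library. Its level was 59.1% of that of Farp1 (52.4 to 73.2%). Gm28119 had 40, 66 and 104 counts and, with its short length, 7.32 CPM per kb, which was 159% (126 to 260%) of the level of 2610203C20Rik.

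The other 5 of the 8 highest members lay between 3.88 and 4.86 CPM per kb and below their hosts. Gm37963 (chromosome 9, 108389082 to 108390205, plus strand), in the ubiquitin protease gene Usp4, stood at 35.9% of its host per length. Gm10115 (chromosome 2, 6950453 to 6951680, minus) in Celf2, a gene for a splicing regulator of neurons, was at 28.1%, and Gm37573 (chromosome 3, 25695195 to 25700303, minus) in Nlgn1, a gene for the postsynaptic adhesion protein neuroligin 1, at 27.7%. Gm15835 (chromosome 16, 4777743 to 4779454, minus) in Cdip1 was at 20.4%, and Gm45591 (chromosome 7, 99321200 to 99322455, plus) in Map6, a gene for a microtubule-stabilizing protein, at 19.7%. The libraries of these 5 members overlapped one another in level, so their order carries little weight. Gm15835 is annotated as a lincRNA in Gencode M21.

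Most members were a small fraction of their host per length. Over the 126 pairs whose host had at least 50 counts in every library, the median level of the member was 6.54% of that of the host, with quartiles of 3.46 and 18.6%. It was below 10% in 78 pairs, above 50% in 7 and above 100% in 2, Peg13 and Gm28119. Members with more than 1 exon stood at a median of 11.1% and members with 1 exon at 5.86%.

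At the low end, Gm43773 was at 0.774% of Snx27, which encodes a sorting protein of endosomes, and Gm44699 at 0.954% of the actin cross-linker gene Actn4. At the high end, Gm26930 was at 84.2% of Gm4258, whose lowest count was 85. The ratios of Gm28229 to Gm20537 and of Gm15535 to Gm37240 were higher still, but those hosts reached only 0 and 1 count in their lowest library and the ratios are not interpretable.

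**Figure D1:**
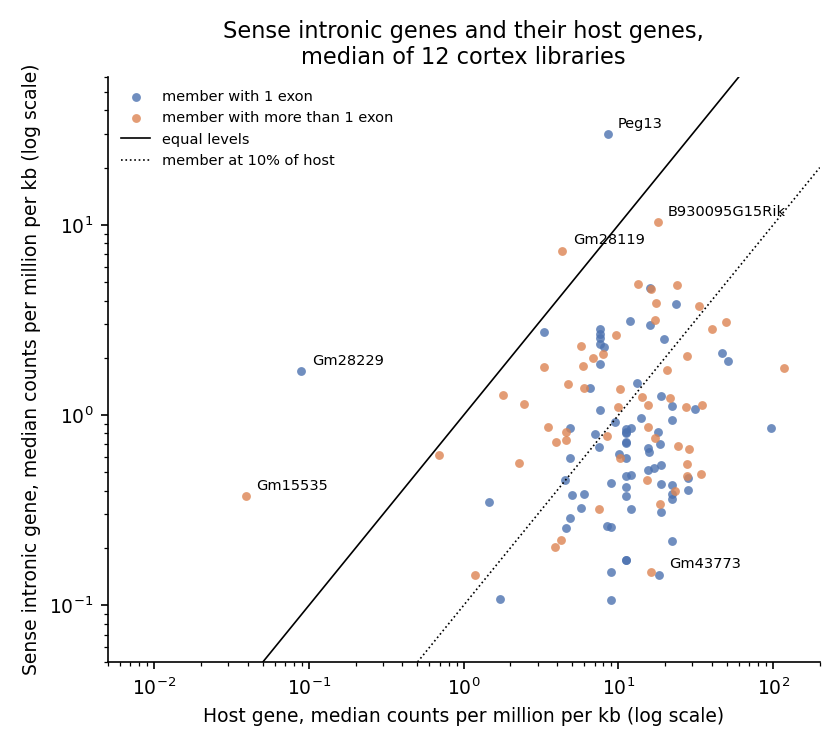
Median level of each sense intronic gene (vertical axis, CPM per kb, log scale) against that of its host (horizontal axis, CPM per kb, log scale) over 12 cortex libraries, with 1 point per member, the solid line at equal levels and the dotted line at 10% of the host. Peg13 and Gm28119 sit above the solid line beside well-counted hosts, and most points lie near or below the dotted line.

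Several hosts carried a series of members. In 10 hosts there were 2 or more, which together took in 40 of the 129 members. Magi3, a gene for a scaffold protein of cell junctions, had 11, Frmd4a, a gene for a polarity scaffold, had 6, and the mannosidase gene Man1a2, the small GTPase gene Rap1a and the kinase gene Cdk14 had 4 each. Lrig2 had 3, and Hs2st1, Capza1, Celf2 and Slc16a1 had 2 each. Members of 1 host share its transcription and are not independent observations.

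In Magi3, on chromosome 3, 8 members lay in intron 1. Gm43256, which begins 30181 bases from the start of the host, stood at 0.817 CPM per kb, and Gm42699, the last in that intron at 104679 bases, at 0.172. Gm42699 was below Gm43256 in 12 of 12 libraries. The steps between were not even, with Gm43260 at 0.840, C030032O16Rik at 0.808 and Gm43258 at 0.479 CPM per kb, and the later member 9530097N15Rik in intron 6 returned to 0.595.

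In Frmd4a, on chromosome 2, the 6 members along the gene stood at 2.55 (Gm10862), 2.84 (Gm38085), 2.67 (Gm37814), 2.35 (Gm37107), 1.86 (Gm38348) and 1.06 (Gm36988) CPM per kb, against 7.59 for the host. The first 3 share an intron and did not differ beyond their spread over libraries. In the control female with the highest share, the counts of the 6 members added up to 32.04% of the counts of Frmd4a itself.

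Among all introns with 2 or more members, 11 in number, the member farthest from the host start had a lower median level per length than the nearest in 9. It was lower in every library in 3 of them, which were Magi3 intron 1, Celf2 intron 9 (Gm10115 at 4.67 and Gm10855 at 2.96 CPM per kb) and Cdk14 intron 10 (Gm10484 at 0.258 and Gm43577 at 0.106). The exceptions were Frmd4a intron 2 and Man1a2 intron 6, where Gm43462 stood at 0.942 and the later Gm42869 at 1.12. These are counts over few introns, without a test.

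**Figure D2:**
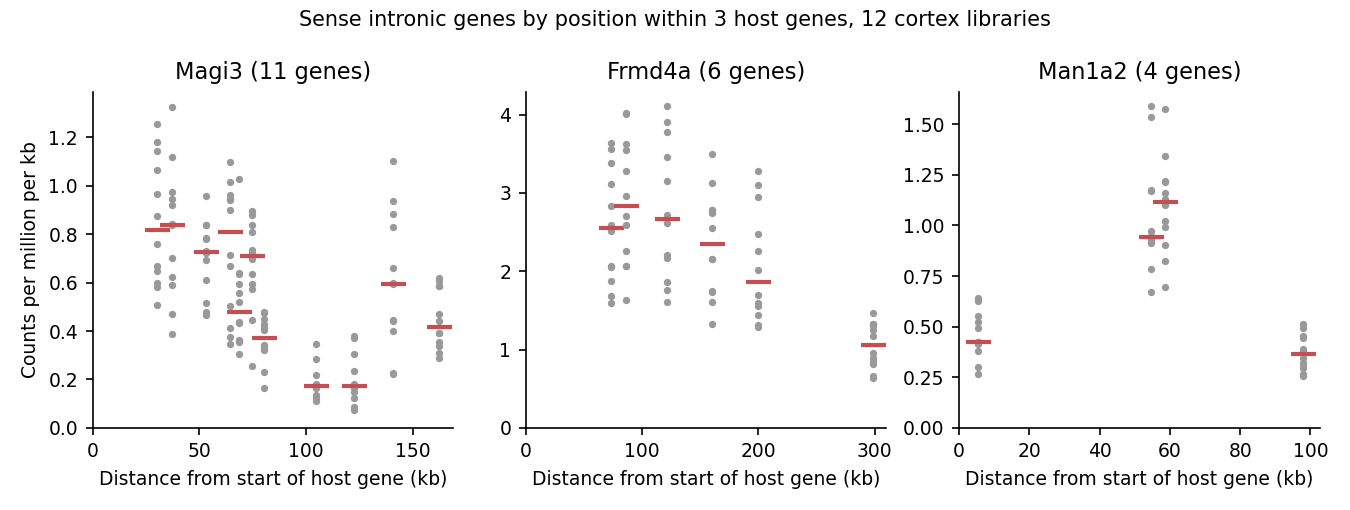
Level of each sense intronic gene (vertical axis, CPM per kb) by the distance of its start from the start of the host (horizontal axis, kb) in Magi3, Frmd4a and Man1a2, with 1 grey point per cortex library and a red bar at the median. In Magi3 the first intron runs down from 0.817 to 0.172, in Frmd4a the level is near 2.5 to 2.8 and then 1.06 at the far end, and Man1a2 has no such order.

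The nPM comparison asked whether prenatal exposure changed these RNAs in the neonatal cortex. With sex and RNA integrity (RIN, 9.4 to 9.9) as covariates, no member passed the unadjusted p cutoff of 0.005, where 0.614% of all 20857 genes tested did, and none passed an adjusted p of 0.05, as 0.0144% of all genes did (edgeR, smallest adjusted p 0.844). Limma voom and DESeq2 also gave 0 members under 0.005. At an unadjusted p under 0.05 there were 6 members (edgeR), all with lower values in nPM, where 2.94% of all genes were lower at that cutoff. The fitted change was negative for 106 of 129 members, with a median of -0.19 on the log2 scale, and for 51.1% of all genes tested. The hosts had a median change of -0.02, lincRNA genes -0.05 and TEC genes -0.18, so the median of the members was close to that of TEC genes and further from 0 than that of their hosts.

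The 8 members with the highest levels all missed the cutoff. Peg13 was at 127.6, 142.7 and 145.9 CPM (lowest, median, highest) in the 6 nPM libraries and at 136.8, 141.3 and 149.2 in the 6 controls. The groups overlapped throughout, and the fitted change was -0.02 ± 0.04 (log2, SE, edgeR p = 0.689, exact permutation p = 0.621). Its host Trappc9 had a change of 0.03. B930095G15Rik was at 46.9 ± 3.83 CPM in nPM and 51.0 ± 7.43 in controls (SD, n = 6 each, exact permutation p = 0.258). Gm28119 was at 1.96 ± 0.386 and 2.45 ± 0.564 CPM (SD, n = 6 each, exact permutation p = 0.106).

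The member with the smallest p was Gm37062, at chromosome 1, 38076295 to 38077305, minus strand, in intron 12 of Rev1, the gene of a translesion DNA polymerase. Its scaled CPM was 0.825, 1.17 and 1.64 (lowest, median, highest) in nPM and 1.18, 1.79 and 2.27 in controls, from 25 to 71 counts. The nPM libraries were mostly the lower ones, but the groups overlapped. The change was -0.59 ± 0.20 (log2, SE, edgeR p = 0.0112, adjusted p = 0.844, exact permutation p = 0.0238), while Rev1 had -0.07.

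Gm43445 lies in intron 3 of Lmo4, a gene for a LIM-domain regulator of cortical neurons, at chromosome 3, 144197172 to 144199262, minus strand. It had 3.97 ± 0.737 CPM in nPM and 5.05 ± 0.859 in controls (SD, n = 6 each, exact permutation p = 0.0476), with a change of -0.35 ± 0.14 where Lmo4 had -0.03. ENSMUSG00000079489, a gene without a symbol in Pspc1, which encodes a paraspeckle protein, had 1.06 ± 0.435 CPM against 1.60 ± 0.270 (SD, n = 6 each, exact permutation p = 0.0325), with a change of -0.60 where Pspc1 had 0.00. Gm38115 in Tmem131 had 0.709 ± 0.0629 against 1.04 ± 0.333 CPM (SD, n = 6 each, exact permutation p = 0.0476).

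For Gm28320 in Tmeff2 and Gm27002 in Osbpl10 the exact permutation p was 0.0758 and 0.0671, above the edgeR values of 0.0319 and 0.0470. Between lanes the 6 members were not steady. On lane 2 the simple log2 difference between exposures ran from -0.71 (Gm28320) to -0.36 (Gm27002), and on lane 3, with 2 libraries against 2, from -0.27 (Gm37062) to 0.13 (Gm28320).

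Set against its host in the same libraries, a member was tested for a change in the ratio, in a model with the library as a block. None of the 127 pairs passed a p of 0.005 (edgeR), where 0.784% of the 2169 nested pairs of any gene type did, and 3 had a p under 0.05, all lower, where 4.1% of pairs were lower at that cutoff. The ratio was lower in nPM in 100 pairs, with a median of -0.16, and in 71.5% of all nested pairs, whose median was -0.14. The smallest p were those of ENSMUSG00000079489 with -0.64 ± 0.25 (edgeR p = 0.0204, exact permutation p = 0.0238), Gm37062 with -0.54 ± 0.23 (0.0284 and exact permutation 0.0368) and Gm28320 with -0.63 ± 0.27 (0.0310 and exact permutation 0.0736), at an adjusted p of 0.929.

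The members' share of all counts describes the same pattern per library. In control females it was 0.0514, 0.0483 and 0.0485% (replicates 1 to 3), and in nPM females 0.0401, 0.0388 and 0.0425%. Every nPM female was therefore below every control female. In control males it was 0.0464, 0.0434 and 0.0335%, and in nPM males 0.0398, 0.0383 and 0.0489%. The males overlapped, and their replicate 3 of each group, both sequenced on lane 3, lay at opposite ends of the male values. The share on TEC genes went with it, at 0.369 to 0.406% in control females, 0.273 to 0.294% in nPM females, 0.338, 0.301 and 0.224% in control males and 0.296, 0.264 and 0.363% in nPM males. The hosts' share was 1.08 to 1.15% in all 12 libraries.

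**Figure D3:**
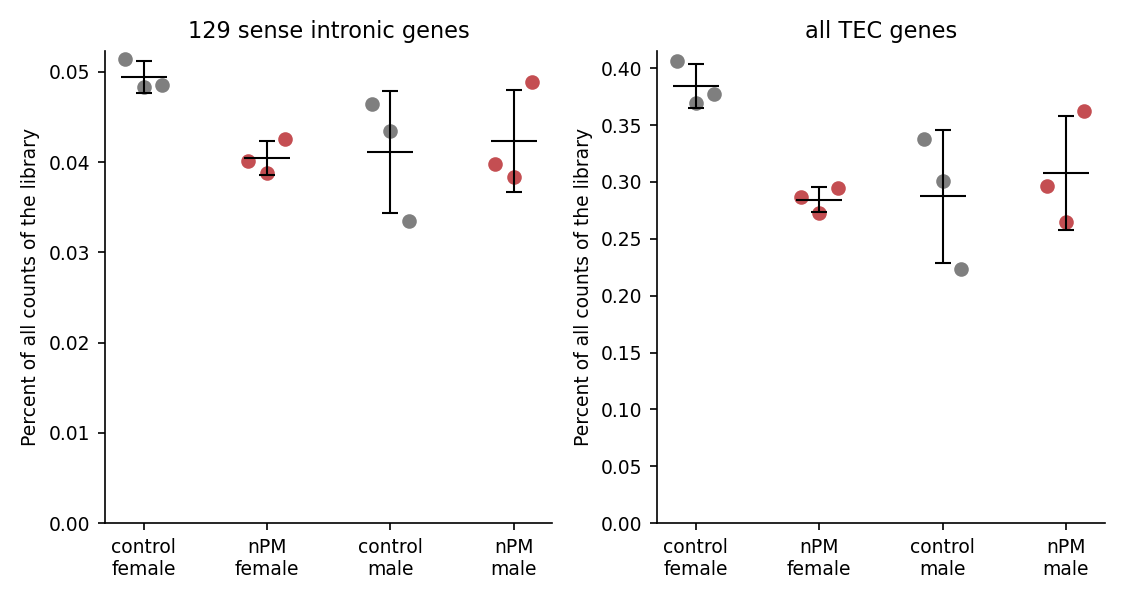
Percent of all counts on the 129 sense intronic genes (left) and on all TEC genes (right), with 1 point per cortex library in each exposure and sex, a bar at the mean and error bars of 1 SD (n = 3). The nPM females lie below the control females in both panels, while the males overlap, with the third control male lowest and the third nPM male highest among males.

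In females, every nPM library was below every control for 50 of 129 members and above for none, where by scaled CPM 11.5% of all genes tested were below and 10.1% above. For the hosts the counts were 13 below and 8 above of 97, and for TEC genes 470 below and 9 above of 1033. In males Gm45823 was below and 5 members were above (Gm26930, Gm43329, Gm43031, Gm26638 and Gm15338), where 4.88% and 4.29% of all genes were. With 3 libraries against 3, an exact permutation test cannot give a p under 0.1. In the fit with the nPM-by-sex term the change in females was negative for 111 members, against 49.7% of all genes, with a median of -0.43, and 3 members had a p under 0.005, all lower, where 1.27% of all genes were lower at that cutoff. They were Gm10855, Gm28941 and Gm26930. Of the 1033 TEC genes, 70 were lower at the same cutoff. No member passed adjustment in females, where 0% of all genes did. In males 49 members were negative, against 50.8% of all genes, the median was 0.05 and no member had a p under 0.005, where 0.336% of all genes did.

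In 8 of the 10 hosts with 2 or more members all members had a negative fitted change in females. Capza1 and Slc16a1, with 2 members each, had 1 lower and 1 higher. All 11 members in Magi3 were lower in nPM females, with a median of -0.58, while Magi3 itself had -0.03. In 5 of them every nPM library was below every control, where 11.5% of all genes tested and 470 of 1033 TEC genes were. Summed, the counts of the 11 members were 15.1 to 19.3% of those of Magi3 in control females and 11.1 to 12.1% in nPM females. In Frmd4a all 6 were lower with a median of -0.65, 5 without overlap, against -0.12 for the host. Their sum was 28.4 ± 3.44% of the host's counts in control females and 19.4 ± 2.42% in nPM females (SD, n = 3 each).

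The other series of 3 or more members had the same direction. The sum of members relative to the host was 10.9 to 12.5% in control and 8.61 to 9.34% in nPM females for Rap1a, 5.88 to 7.11% and 4.18 to 4.78% for Man1a2, 7.27 to 10.5% and 5.52 to 6.52% for Lrig2, and 2.18 to 2.36% and 1.17 to 1.65% for Cdk14. The female groups did not overlap in any of these 6 hosts. The same female libraries enter every host, so these are not 6 separate observations. The male groups overlapped in all 6, for example in Magi3 (8.64 to 16.8% in controls, 9.38 to 15.1% in nPM) and in Frmd4a (18.3 to 30.3% and 18.7 to 31.4%). Among hosts with 2 members, the female groups also did not overlap in Hs2st1 and Capza1. They did overlap in Celf2 (2.79 to 4.11% in controls, 2.62 to 2.85% in nPM) and Slc16a1 (1.33 to 2.29% and 1.22 to 1.73%). No share over other nested pairs was computed for such sums.

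The nPM-by-sex term asks whether the change in males differed from that in females. It had a p under 0.005 for 4 members, all with a higher change in males, where 0.743% of all genes tested were higher at that cutoff, and none passed adjustment, as did 0% of all genes. The term was positive for 108 of 129 members, and for 49.7% of all genes, with a median of 0.47, against 0.01 for the hosts and 0.61 for TEC genes. For the ratio of member to host the same term, added after seeing the data, had a median of 0.46 over 127 pairs, where all 2169 nested pairs had 0.45 and nested TEC genes 0.58.

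Gm26930 lies at chromosome 1, 137932041 to 137933284, plus strand, in intron 2 of Gm4258. It was at 4.58, 3.96 and 4.51 CPM in control females and at 2.39, 2.57 and 2.81 in nPM females. In control males it was at 2.92, 3.19 and 1.94 and in nPM males at 3.73, 3.61 and 3.86. The groups did not overlap in either sex and went in opposite directions, with a term of 1.25 ± 0.28 (log2, SE, edgeR p = 0.000525, adjusted p = 0.303, exact permutation p = 0.005). Shuffling exposure within each sex allows 400 regroupings, and 0.005 is the smallest p they can give. Its host Gm4258 had a term of 0.65, and a gene on the opposite strand, Gm26936, overlaps Gm26930.

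Gm10855, in Celf2 at chromosome 2, 6932541 to 6935081, minus strand, was at 11.2, 10.6 and 8.31 CPM in control females and 5.82, 6.04 and 5.48 in nPM females. It was at 8.16, 7.30 and 4.96 in control males and 7.76, 6.63 and 10.01 in nPM males. The females did not overlap and the males did. The term was 1.08 ± 0.28 (edgeR p = 0.00187, adjusted p = 0.334, exact permutation p = 0.025), and that of Celf2 was 0.39.

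Gm26638, in Tmem178b at chromosome 6, 40118779 to 40129477, plus strand, was at 1.68, 1.25 and 1.39 CPM in control females and 0.947, 0.664 and 0.935 in nPM females. In males it was at 0.765, 0.829 and 0.831 in controls and 1.19, 1.17 and 1.58 in nPM, without overlap in either sex and in opposite directions. The term was 1.39 ± 0.39 (edgeR p = 0.00284, adjusted p = 0.360, exact permutation p = 0.005).

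Gm28941, in Mff, which encodes a mitochondrial fission factor, was named after its values were seen. It was at 3.06, 4.22 and 3.60 CPM in control females and at 2.28, 2.11 and 2.23 in nPM females. In males it was at 1.93, 3.09 and 1.85 in controls and 2.21, 3.02 and 2.80 in nPM, with overlap. The term was 1.08 ± 0.32 (edgeR p = 0.00414, adjusted p = 0.360, exact permutation p = 0.03).

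**Figure D4:**
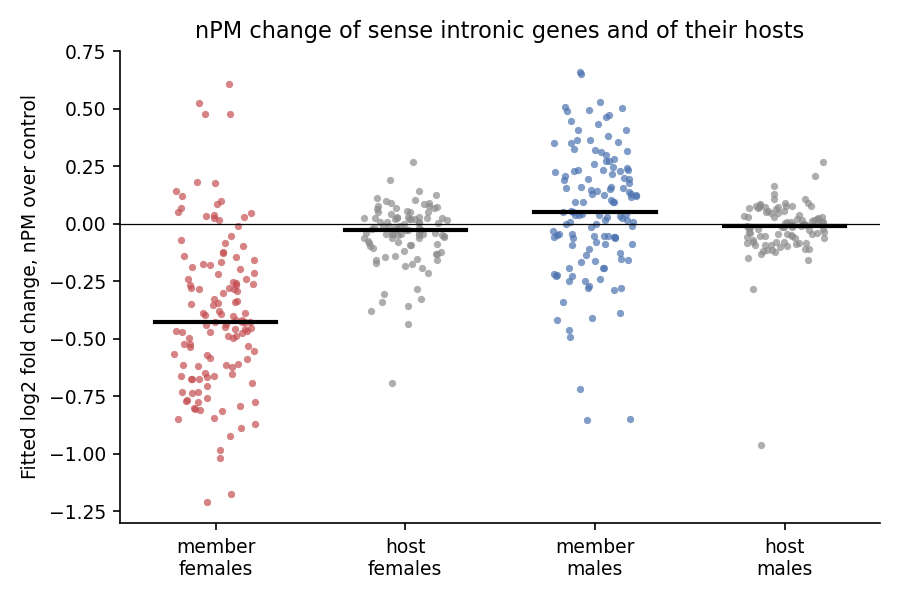
Fitted log2 fold change of nPM over control (vertical axis) in females and in males for the 127 members with a tested host and for their hosts, with 1 point per gene and a black line at the median. In females most members lie below 0 and the hosts center on 0, and in males both center near 0.

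**Figure D5:**
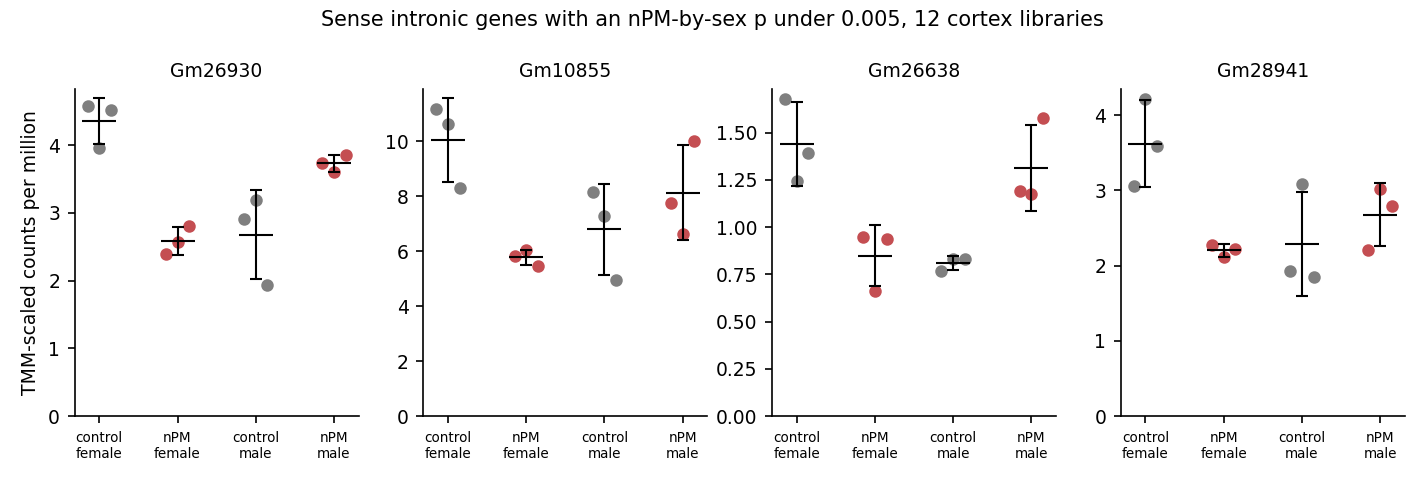
TMM-scaled CPM of the 4 members with an nPM-by-sex p under 0.005, with 1 point per cortex library, a bar at the mean and error bars of 1 SD (n = 3). In each, the nPM females lie below the control females, and for Gm26930 and Gm26638 every nPM male lies above every control male.

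Over the members as a set, the median difference between the sexes depended on the males of lane 3, which were 1 nPM and 1 control library. Comparing that pair alone, 122 of 129 members were higher in nPM with a median log2 difference of 0.47. In the males of lane 2, 99 were lower with a median of -0.16, in the females of lane 2, 111 were lower with -0.33, and in the single female pair of lane 3, 95 were lower with -0.20. When both male libraries of lane 3 were left out, 119 members were negative for nPM with a median of -0.38, and the nPM-by-sex term had a median of 0.05. Those libraries were left out because of their values, so this setting describes how much rests on them and is no test of nPM.

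On the 8 libraries of lane 2 alone, a split by the labelled lane that was also made after seeing the data, 14 members had a p under 0.005 for nPM, all lower, with a median of -0.33, where 2.14% of all genes were lower at that cutoff, and 2 passed adjustment, Gm10862 and Gm38348 in Frmd4a, where 0.474% of all genes did. The by-sex term had a median of -0.01 and no member under 0.005, where 0.517% of all genes did. The lane 2 split also leaves out both male libraries of lane 3, so its calls are no test of nPM. Gm38348, at chromosome 2, 4217081 to 4219353 in intron 4 of Frmd4a, was over all lanes at 7.25, 5.62 and 5.12 CPM in control females and 3.26, 2.96 and 3.52 in nPM females. In control males it was at 6.89, 4.59 and 3.05 and in nPM males at 3.86, 3.61 and 7.01. The females did not overlap, and among the males replicate 3 of each group reversed the order of the others.

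The hosts kept a median of -0.02 in both settings, and TEC genes had -0.36 on lane 2 and -0.40 without both male libraries. With the TEC share as a further covariate over all 12 libraries, the median nPM change of the members was 0.03, with 53 of 129 negative (49.9% of all genes), and the median by-sex term was -0.17. In that fit no member passed 0.005 for nPM, where 0.542% of all genes did, or for the term, where 0.647% did. From library to library the TEC share went with the members' share, so adjusting for it takes out much of their shift. The fit is therefore no test of nPM or of the by-sex term.

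Male control replicate 3, 1 of the 2 lane 3 males, had the lowest level of the 12 libraries for 50 of 129 members and for 425 of 1033 TEC genes, and female control replicate 1 had the highest for 42 members. Male control replicate 3 also had the highest summed markers of microglia (257 CPM), oligodendrocyte lineage (744), astrocytes (1415) and endothelium (124). Female control replicate 1 had the highest summed striatal markers (402 CPM). Cortical neuron markers such as Tbr1 were present in every library, at 616 to 750 CPM in sum over all 9. Choroid plexus markers summed to 33.1 to 401 CPM in controls and 239 to 515 in nPM, and of the 10 striatal markers 3 were higher in nPM at an unadjusted p under 0.05 (edgeR), where 2.73% of all genes were. The part of these differences in the members' values was not tested, and in whole tissue fewer cells of a type and less RNA per cell cannot be told apart.

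The comparison of males with females, over both exposures, gave few calls. The sex term was negative (lower in males) for 95 members, and for 51.7% of all genes, with a median of -0.14, no member had a p under 0.005, where 0.518% of all genes did, and 2 had a p under 0.05, both lower, where 3.2% of all genes were. Gm3364 in Ldb2 had -0.94 ± 0.34 (edgeR p = 0.0134, exact permutation p = 0.0714), Gm15869 in Fopnl -0.75 ± 0.33 (0.0360 and exact permutation 0.0693) and Gm42869 in Man1a2 -0.38 ± 0.18 (0.0526 and exact permutation 0.145), at an adjusted p of 0.797.

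Genes that act on intronic RNA were examined from lists. Of 21 tested genes of the nuclear exosome and its adaptors, which degrade RNA in the nucleus, none had a p under 0.05 for nPM (edgeR) and the median change was 0.02. The 28 tested genes of transcription termination and intron turnover likewise gave none and a median of 0.00. Among 12 RNAs kept in the nucleus and proteins of speckles and paraspeckles, 2 were lower at a p under 0.05, where 2.94% of all genes were. They were Neat1, the scaffold RNA of paraspeckles, with -0.29 ± 0.10 (log2, SE, edgeR adjusted p = 0.844) and Xist with -0.33 (edgeR adjusted p = 0.862). Xist ran from 0.692 to 657 CPM over the 12 libraries, so its change carries little weight. Of this list Son, with 0.31, and the speckle RNA Malat1, with 0.56, had a p under 0.005 for the nPM-by-sex term (edgeR), where 0.743% of all genes were higher at that cutoff, and its median term was 0.34. In the exosome list only Zcchc7 passed for that term, with 0.56, and in the termination list Ints10 with 0.27 and Cstf2 with 0.31.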

How the data were processed

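RNA was ribosome-depleted (RiboZero Gold) and sequenced on a HiSeq 3000. The authors trimmed reads with Trimmomatic, aligned them to mm10 with HISAT2 and counted them with featureCounts 1.5.0-p3 on Gencode M11, and the deposited table holds raw counts per gene without normalization. The deposited gene table gave coordinates, types and lengths, and the authors' mean RPKM columns in it were not used. Reads were not realigned. Of the 24 libraries, the 12 of cortex entered the tests and the 12 of blood are described only.

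The members and gene lists were chosen with earlier results of these data known. The host was the shortest protein-coding gene, or another gene where there was none, that spanned the member on its strand. Intron positions and transcript sequences came from Gencode M21 (GRCm38). Introns were numbered and measured on the merged exons of all transcripts of the host, not on a single transcript.

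Tests were two-sided edgeR 4.0.16 quasi-likelihood F tests (R 4.3.3) with TMM normalization on the 20857 genes with at least 1 count in every cortex library, Benjamini-Hochberg adjusted over all of them. Model 1 held exposure, sex and RIN, and model 2 added exposure by sex, with females as reference. edgeR replaced the study's limma voom fit. The ratio to the host was tested on stacked counts of 2169 nested pairs with a library block and gene kind by exposure, sex and RIN. The simple log2 differences between exposures added 0.5 to the scaled CPM, and the fitted edgeR changes used the default prior count. The SE of an edgeR change is its absolute value divided by the square root of its F value. Levels per length are medians of CPM per kb of exon. Exact permutation tests took 6 against 6 libraries, with a smallest p of 0.00216. Scripts were tested on simulated counts.

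Named members were the 8 with the highest level, the 5 highest and 3 lowest ratios to the host, the smallest p of each test (6 for nPM, 3 for the others), hosts with 2 or more members, and the genes at the threshold. A few of these results are not reported here. Alternatives were limma voom (limma 3.58.1), DESeq2 1.42.0, RLE size factors, other count filters, no RIN, a lane or TEC covariate, another host choice, and each library left out. Fits on lane 2, without both male lane 3 libraries, and a by-sex term in the ratio were added after seeing the data. Replicates carry no label number and were numbered in accession order. The labels do not state whether the libraries came from separate litters, so p-values measure the spread between these animals. No 2 cortex libraries were copies, with a smallest chi-square per gene of 7.23 where sampling alone gives about 1.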

Additional observations from a re-analysis of the deposited data

Results flagged for a closer look

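Among the 56 groups of 6 libraries examined, 3 had 1 library far from the rest, and chance alone flags about 1 in 20 groups. Peg13 was lowest among nPM libraries in male nPM replicate 1, at 127.576 scaled CPM, where the other 5 lay between 140.609 and 145.893. Gm43773 was highest among controls in male control replicate 1, at 0.692 CPM, where the others lay between 0.216 and 0.382. The share of counts on TEC genes was highest among nPM libraries in male nPM replicate 3, at 0.363%, where the others lay between 0.264 and 0.296%.

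The nPM-by-sex term had an unadjusted p under 0.005 (edgeR) for 4 members, all with a higher change in males. Of all genes tested, 0.743% were higher at that cutoff. None of the 4 passed adjustment, as did 0% of all genes. The term was 1.25 for Gm26930 (-0.76 in females, 0.49 in males), 1.08 for Gm10855 (-0.81 and 0.28), 1.39 for Gm26638 (-0.73 and 0.65) and 1.08 for Gm28941 (-0.77 and 0.32). On the 8 libraries of lane 2 alone the term was 0.99, 0.66, 0.85 and 1.46 in that order. The 4 members were picked by their term over all 12 libraries, which include these 8. The positive sign on lane 2 is therefore no independent support. No member had a p under 0.005 there, where 0.517% of all genes did.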

How the results depend on the processing

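No paired analysis was possible because the labels give cortex libraries no replicate numbers. With nearly no count filter (at least 1 count in any library) 4 members had a p under 0.005 for nPM (3.1% of members and 1.62% of all genes) and 14 for the nPM-by-sex term (10.9 and 2.42%). With the TEC share as covariate the medians were 0.031 for nPM, -0.17 for the by-sex term (0 members under 0.005, where 0.647% of all genes were) and 0.055 for sex, and the nPM change turned positive for B930095G15Rik (0.013), Gm37963 (0.15), Gm45591 (0.016) and Gm10115 (0.10). On lane 2 the counts were 14 for nPM (10.9% of members and 2.98% of all genes), 0 for the by-sex term (0.517% of all genes, median -0.010) and 4 for the ratio to the host (3.15% of members' pairs and 3.28% of all pairs). Without both male lane 3 libraries they were 22 for nPM (17.1% of members and 3.66% of all genes, median -0.38), 1 for the by-sex term (0.775 and 1.02%, median 0.049) and 11 for the ratio (8.66 and 6.63%). The male lane 3 libraries were chosen by their values, and the lane 2 setting also lacks them. The gained calls of both settings are therefore no evidence for nPM.

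Leaving out each library in turn gave 0 to 5 members for nPM (4 without male nPM replicate 3, 3.1% where 1.51% of all genes passed, and 5 without male control replicate 3, 3.88 and 1.37%) with medians of -0.30 to -0.11, 1 to 9 for the by-sex term with medians of 0.25 to 0.66, and sex medians of -0.30 to -0.047. The ratio gave 0 to 3 members, with 3 without male nPM replicate 3 (2.36% where 1.56% of all pairs passed). The by-sex count was 9 without male control replicate 1 (6.98% where 1.61% of all genes passed), 1 without male nPM replicate 3 (0.775 and 0.76%) and 2 without any 1 of the 3 control females, nPM female replicates 2 or 3, or male control replicate 3 (1.55% where 0.787 to 1.33% of all genes passed). The near-zero nPM changes of Peg13 and Gm37963 ran from -0.029 to 0.0087 and from -0.15 to 0.065, and turned positive without 2 and 5 libraries. The TEC covariate also moved the median ratio to the host to 0.035. That covariate goes with the members' own share, so the values fitted with it are no test of nPM or of sex. In the other settings, limma voom and DESeq2 included, these counts and medians stayed within 1.5 times or 1 SD. The cause was not tested. Depth limits the rest, since 83 members had medians under 50 counts.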

Other observations

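In blood most members were at or near 0 counts. Their share of counts was 0.00148 to 0.00246% in 11 of the 12 blood libraries and 0.0152% in female control replicate 2 of blood, where 116 members had a count, against 18 to 80 in the others. The median blood count was 0 for 81 members, and 5 members had a count in every blood library. Peg13 had 12 to 94 counts in blood. These values come from another tissue with its own library composition and were not tested.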
